A study of Mus musculus with 12 samples.

Results

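Arrays taken at the end of the subjective day were compared with arrays taken at the end of the subjective night in mouse urinary bladder. The comparison pools circadian time (CT) 8 and CT12, called dusk here, and sets them against CT20 and CT0, called dawn. The members are the 8 arrays whose titles give these times, 4 in each group, of 12 arrays in all. The other 4 arrays, from CT4 and CT16, enter no group mean.

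All 12 samples are total RNA of whole bladder from wild-type female C57BL/6 mice, 10 weeks old, on 1-colour (Cy3) Agilent mouse arrays. The mice had 2 weeks of 12 h light and 12 h dark and were then killed in constant darkness, with 2 arrays for each of 6 times spaced 4 h apart. No group carries a mutation or a drug, so dusk and dawn differ by the time of killing. The labels give neither the length of the dark period nor the number of mice behind an array, so the p-values measure the spread between arrays, which may be technical.

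In the mammalian clock, the activators BMAL1 (gene Arntl) and CLOCK, or its relative NPAS2, bind E-box sequences and switch on Per, Cry, Nr1d1, Nr1d2, Ciart and Dec (Bhlhe40, Bhlhe41) genes, whose products feed back as repressors. REV-ERB proteins (Nr1d1, Nr1d2) repress Arntl, Npas2 and Nfil3 through RORE sequences. The proline and acidic amino acid-rich factors DBP, TEF and HLF activate D-box sequences, which NFIL3 represses. In many mouse organs these genes form opposite phases, which is what a comparison of dusk with dawn reads.

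Levels are given as log2 processed signal minus the 75th percentile of the array, so that 0 is that percentile and a difference of 1 is a doubling. The share of spots well above background ranged from 64.2% to 70.2% per array. The bladder layers were present on all 8 arrays: Upk3a, a uroplakin of the umbrella cells, lay between 6.52 and 7.74, and Tagln of smooth muscle between 8.58 and 8.90. All 4 dusk arrays lay on slide 2, whereas the dawn arrays were on slide 1 (CT0) and slide 3 (CT20). No slide held both groups, so slide 2 and dusk cannot be told apart in the pooled difference. In whole tissue, fewer cells of a type and less RNA per cell cannot be told apart either.

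The largest differences among the genes past the threshold were in clock genes, and a mixed set of other genes also passed. Of 18011 genes tested, 32 (0.178%) passed an adjusted p of 0.05 in limma, 25 of them higher at dusk (0.139%) and 7 higher at dawn (0.0389%). Members of the 3 clock lists (7, 9 and 18 genes tested) made up 10 of the 32. These lists were chosen with earlier results of these data known, so that count is no independent result. The largest differences were 29.7-fold for Ciart and 12.1-fold for Dbp. The median difference of the 32 was 2.11-fold, the smallest 1.42-fold, 18 exceeded 2-fold and 5 exceeded 4-fold. The 4 and 4 arrays did not overlap in any of the 32, and in 1231 of all genes (6.83%). Without adjustment 1873 genes (10.4%) had p under 0.05, 984 of them higher at dusk (5.46%) and 889 higher at dawn (4.94%).

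The number of genes past the threshold fell to between 9 and 15 whenever 1 array was left out. At CT0 it was 11 with replicate 1 left out and 12 with replicate 2 left out. The same counts were 9 and 11 at CT8, 12 and 11 at CT12, and 15 and 9 at CT20, replicate 1 first in each case. In all 8 of these fits Nr1d2, Arntl, Dbp, Tef, Ciart, Lefty1, Leo1 and the transcript named NAP065150-1 stayed past it, and 14 of the 32 passed in none. Scaling each array on its median gave 17 genes, 10 higher at dusk and 7 at dawn, a more even split than 25 and 7. Each of the 32 kept the sign of its difference in every alternative that tested it, 29 or 30 in number.

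**Figure D1:**
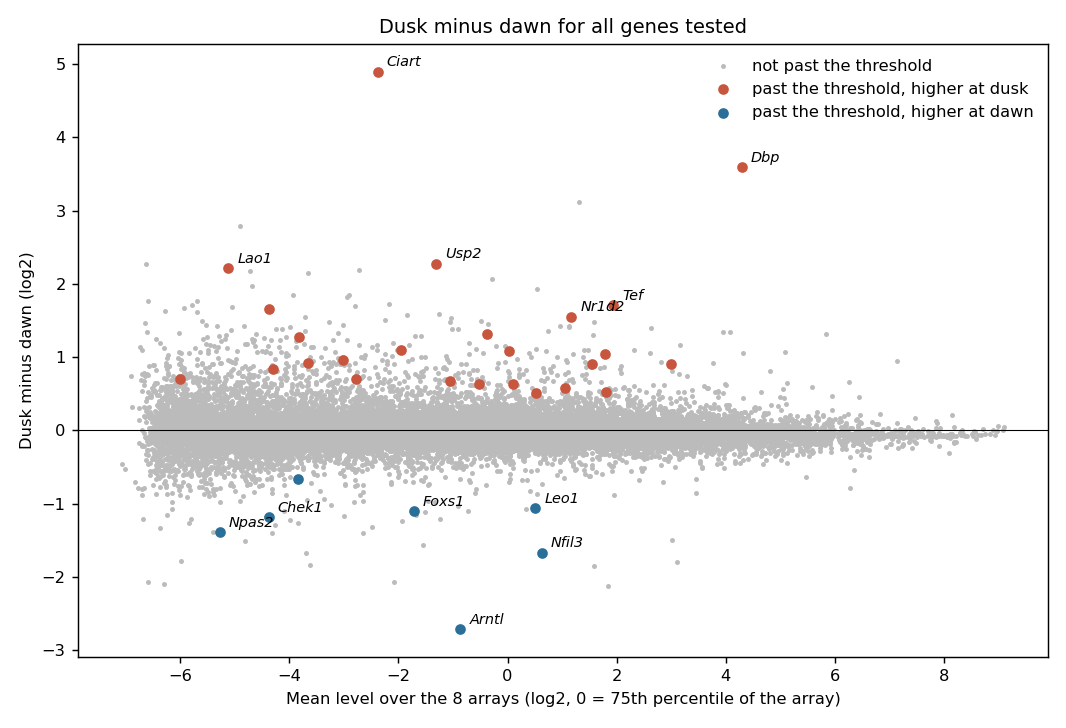
Difference between dusk and dawn (log2, vertical) against the mean level over the 8 arrays (log2, horizontal) for the 18011 genes tested, with the 25 genes past the threshold and higher at dusk in red and the 7 higher at dawn in blue. Ciart and Dbp stand above all other genes, Arntl lies lowest, and the scatter of the grey points widens towards low levels.

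Among the activators and the genes known to peak near dawn, Arntl, Nfil3 and Npas2 were higher at dawn. Arntl encodes BMAL1 (probe chr7:109229489-109229548, mm7) and measured -2.45 and -2.02 on the CT8 arrays and -1.97 and -2.45 on the CT12 arrays, against 0.59 and 0.41 at CT20 and 0.68 and 0.27 at CT0. All 4 dawn arrays lay above 0, and the highest dusk array stood at -1.97. The difference was -2.71 ± 0.15 (log2, SE, 4 against 4 arrays, adjusted p = 0.000517), or 6.55-fold higher at dawn. Nfil3, the D-box repressor (probe chr13:52008023-52008082, mm7), gave -0.33 and -0.45 on the CT8 arrays and -0.17 and 0.12 on the CT12 arrays, against 1.17 and 1.17 at CT20 and 1.71 and 1.81 at CT0. Dawn exceeded dusk 3.19-fold, with a difference of -1.67 ± 0.19 (log2, SE, 4 against 4 arrays, adjusted p = 0.0287), and a further Nfil3 probe differed by -1.56. The CT0 arrays were the highest and the groups did not overlap. Npas2, the relative of CLOCK (probe chr1:39603477-39603536, mm7), was dim, at -5.94 and -5.91 on the CT8 arrays and -5.76 and -6.26 on the CT12 arrays, against -4.76 and -4.39 at CT20 and -4.37 and -4.79 at CT0. It was well above background on 4 of 4 dawn arrays and on 2 of 4 dusk arrays. Its difference was -1.39 ± 0.14 (log2, SE, 4 against 4 arrays, adjusted p = 0.0184), 2.62-fold, but only -0.29 in the authors' value table, where it missed the threshold.

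The other genes reported from this list missed the threshold. Clock, the partner of BMAL1, measured 1.28 and 1.14 on the CT8 arrays and 1.04 and 0.88 on the CT12 arrays, against 1.46 and 1.35 at CT20 and 1.61 and 1.68 at CT0. The groups were separate, yet the difference was small (-0.44, adjusted p = 0.258), and 3 further Clock probes gave -0.31 to -0.54. Cry1, a repressor that peaks later than the Period genes, had -0.30 (adjusted p = 0.773). Arntl2, a BMAL1 paralog, had 0.33 (adjusted p = 0.530). The median over all genes tested was -0.020.

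Promoters were searched for RORE, E-box and D-box letters. The windows run from 250 bases before to 50 bases after each start in RefSeq (GRCm38.p6), on both strands. An RORE, read as TAGGTCA or TGGGTCA, was in 6.45% of 32851 promoters. Of the 7 genes higher at dawn 6 had a promoter entry, and 3 of these 6 held the letters: Nfil3, Leo1 and Arntl, the last one 30 bases after a start. Of the 25 genes higher at dusk 18 had an entry and 1 held them, Rasd2. The stretches that hold these letters before the start are printed for Nfil3 (chr13:52981040-52981076, minus strand), Leo1 (chr9:75441436-75441492, plus strand) and, as the case from the other direction, Rasd2 (chr8:75213840-75213896, plus strand). Capitals mark the match, which in Nfil3 reads on the opposite strand. The matches begin 12 bases before the start in Nfil3, 63 in Leo1 and 79 in Rasd2.
Nfil3: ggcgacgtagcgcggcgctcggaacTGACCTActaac
Leo1: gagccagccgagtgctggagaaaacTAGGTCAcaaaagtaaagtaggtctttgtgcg
Rasd2: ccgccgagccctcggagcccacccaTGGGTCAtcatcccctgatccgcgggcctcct

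The repressors all had higher means at dusk, and Ciart and Nr1d2 passed the threshold. Ciart, which encodes a repressor of CLOCK and BMAL1 (probe chr3:95752460-95752519, mm7), measured 0.69 and 0.46 on the CT8 arrays and -0.72 and -0.16 on the CT12 arrays, against -4.86 and -5.31 at CT20 and -5.01 and -4.12 at CT0. The lowest dusk array, at CT12, still lay far above the highest dawn array, at CT0. The difference was 4.89 ± 0.36 (log2, SE, 4 against 4 arrays, adjusted p = 0.00236), 29.7-fold, and 3.33 in the authors' value table. Nr1d2, encoding REV-ERB beta (probe chr14:16018965-16019024, mm7), measured 2.01 and 1.88 on the CT8 arrays and 1.99 and 1.91 on the CT12 arrays, against 0.34 and 0.26 at CT20 and 0.41 and 0.57 at CT0. Its dusk arrays spanned only 1.88 to 2.01, and its difference was 1.55 ± 0.082 (log2, SE, 4 against 4 arrays, adjusted p = 0.000517), 2.93-fold.

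The remaining 7 repressors missed the threshold, although their dusk and dawn arrays did not overlap. For the Period genes CT12 had higher means than CT8. Per1 measured 0.82 and 1.05 on the CT8 arrays and 1.95 and 2.21 on the CT12 arrays, against -0.40 and -0.81 at CT20 and -0.31 and -0.18 at CT0, with both CT12 arrays above both CT8 arrays, and differed by 1.93 ± 0.32 (log2, SE, 4 against 4 arrays, adjusted p = 0.0906). Per2 gave -0.67 and -0.65 on the CT8 arrays and 0.16 and 0.051 on the CT12 arrays, against -1.56 and -1.59 at CT20 and -2.37 and -1.72 at CT0. It differed by 1.53, adjusted p = 0.0941, but a further Per2 probe gave 0.44. Per3, dimmer and above background on 3 of 4 dawn arrays, had 1.69, adjusted p = 0.214, and 0.54 in the authors' value table. Nr1d1, encoding REV-ERB alpha, measured 1.32 and 1.63 on the CT8 arrays and 0.036 and -0.015 on the CT12 arrays, against -1.64 and -1.93 at CT20 and -1.03 and -0.68 at CT0. CT8 was far above CT12, so its 4.17-fold mean difference (2.06, adjusted p = 0.185) carried a wide SE of 0.45. Its other probes gave 1.59 and 0.34. Cry2 had 0.62, adjusted p = 0.106, with 1.21 on a further probe. The Dec genes Bhlhe41 (1.14, adjusted p = 0.0509) and Bhlhe40 (0.80, adjusted p = 0.0834) also missed it. The median of the 9 repressors was 1.55, and each had a higher mean at dusk in every alternative that tested it, 29 or 30 in number.

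**Figure D2:**
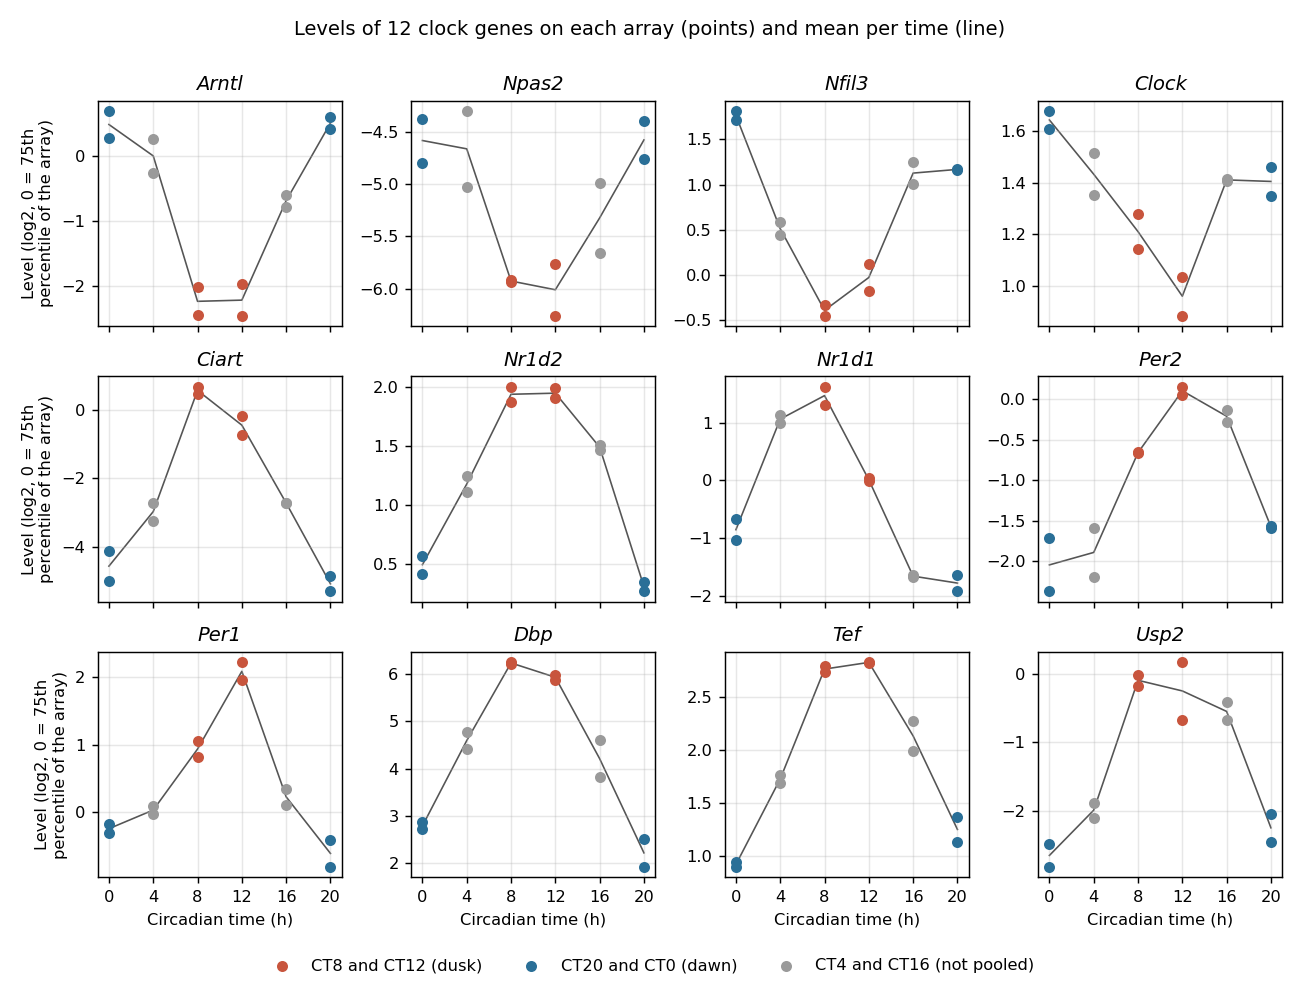
Level of 12 clock genes on each of the 12 arrays (points, log2 relative to the 75th percentile of the array) against circadian time in hours, with the mean of the 2 arrays of a time as a line. Arntl, Npas2, Nfil3 and Clock are lowest on the red dusk arrays, the other 8 genes are highest at CT8 or CT12, and Nr1d1 and Per2 differ in which of these times is higher.

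E-box letters, CACGTG, were in 7.15% of all promoters and in 11.0% of the 11836 tested genes with an entry. They were present in 3 of the 7 repressors with an entry (Ciart, Per1, Bhlhe41), in 3 of the 18 genes higher at dusk (Ciart, Tef, Acap3) and in 0 of the 6 higher at dawn. The variant CACGTT was in 4.68% of all promoters, among them those of Nr1d1 and Cry2. A D-box, read as TTATGTAA or TTACGTAA, was in 1.06%, and of the repressors in Per3 alone. Shown are Ciart with 3 E-boxes (chr3:95882242-95882369, minus strand), Tef (chr15:81802521-81802576, plus strand), Acap3 as a gene outside the clock lists (chr4:155891705-155891760, plus strand), and Per3 with 2 D-boxes (chr4:151044791-151044895, minus strand). Capitals mark the matches. A match describes letters in this window and not a bound site.
Ciart: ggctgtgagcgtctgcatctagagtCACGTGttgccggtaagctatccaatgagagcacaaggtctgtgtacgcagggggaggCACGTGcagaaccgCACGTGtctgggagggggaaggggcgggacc
Tef: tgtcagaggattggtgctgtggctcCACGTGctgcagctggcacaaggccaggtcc
Acap3: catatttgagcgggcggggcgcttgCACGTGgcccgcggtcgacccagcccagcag
Per3: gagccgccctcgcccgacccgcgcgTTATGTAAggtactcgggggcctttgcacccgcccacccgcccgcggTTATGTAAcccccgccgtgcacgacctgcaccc

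Of the 18 clock outputs, Dbp, Tef, Usp2 and Klf9 were higher at dusk and Leo1 was higher at dawn. Dbp, the D-box activator (probe chr7:41886169-41886228, mm7), measured 6.26 and 6.22 on the CT8 arrays and 5.88 and 5.99 on the CT12 arrays, against 2.51 and 1.91 at CT20 and 2.71 and 2.86 at CT0. The difference was 3.59 ± 0.20 (log2, SE, 4 against 4 arrays, adjusted p = 0.000517), 12.1-fold. Tef, of the same family (probe chr15:81910893-81910952, mm7), gave 2.79 and 2.74 on the CT8 arrays and 2.82 and 2.83 on the CT12 arrays, against 1.37 and 1.13 at CT20 and 0.95 and 0.90 at CT0. Its 4 dusk arrays nearly coincided, its difference was 1.71 ± 0.11 (log2, SE, 4 against 4 arrays, adjusted p = 0.00105), 3.26-fold, and 3 further probes gave 1.38 to 2.00. Hlf, the third of the family, missed the threshold (1.43, adjusted p = 0.0906), with 1.67 and 1.34 on the CT8 arrays and 1.82 and 1.86 on the CT12 arrays, against 0.63 and 0.47 at CT20 and 0.33 and -0.45 at CT0.

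Usp2, a deubiquitinating enzyme (probe chr9:44027086-44027145, mm7), measured -0.013 and -0.18 on the CT8 arrays and -0.67 and 0.17 on the CT12 arrays, against -2.04 and -2.45 at CT20 and -2.48 and -2.82 at CT0. The CT12 arrays lay on either side of the CT8 arrays, and the mean difference was 2.27 ± 0.21 (log2, SE, 4 against 4 arrays, adjusted p = 0.0113), 4.83-fold. Klf9, a zinc finger factor induced by glucocorticoids (probe chr19:22862974-22863033, mm7), gave 1.87 and 1.77 on the CT8 arrays and 2.00 and 2.34 on the CT12 arrays, against 1.13 and 1.09 at CT20 and 1.04 and 1.08 at CT0. It was 1.88-fold higher at dusk, by 0.91 ± 0.12 (log2, SE, 4 against 4 arrays, adjusted p = 0.0426). Leo1, a subunit of the PAF1 elongation complex (probe chr9:75503366-75503425, mm7), gave -0.14 and 0.16 on the CT8 arrays and -0.040 and -0.067 on the CT12 arrays, against 1.03 and 0.99 at CT20 and 1.01 and 1.14 at CT0. It was 2.09-fold higher at dawn, by -1.06 ± 0.083 (log2, SE, 4 against 4 arrays, adjusted p = 0.00303), the smallest SE among the dawn genes of the clock lists.

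The other 13 outputs missed the threshold. Tspan4, a tetraspanin (1.06, adjusted p = 0.0816), Coq10b of coenzyme Q biology (0.86, adjusted p = 0.171) and Tsc22d3, the glucocorticoid-induced leucine zipper (1.06, adjusted p = 0.354), were the 3 with the largest positive means after Hlf. Differences of 0.61 for Cys1, 0.50 for the cell cycle kinase Wee1, 0.41 for Gpcpd1 and 0.29 for Klf11 also missed it. Lonrf3 (-0.50) and Dtx4 (-0.50) had lower means at dusk. Nampt, the rate-limiting enzyme of NAD salvage, had -0.063, Klf10 -0.094, and Pdk4, a kinase that inhibits pyruvate dehydrogenase, 0.050. Adjusted p was 0.139 to 0.929 over these 9. The median of the 18 outputs was 0.56.

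Pooling sets CT8 against CT20 and CT12 against CT0, each 12 h apart and sharing no array. In the 32 genes past the threshold in the pooled test both differences had the same sign. That outcome was fixed, because the 4 and 4 arrays did not overlap in any of the 32. The median absolute difference between the pairs was 0.16 in them, against 0.18 over all genes. In limma 3 of the 32 had an unadjusted p under 0.05 for the difference between the pairs, against 1209 of all 18011 genes. Arntl differed by -2.73 in CT8 minus CT20 and by -2.69 in CT12 minus CT0. Usp2 had 2.15 and 2.39, and Nr1d2 1.64 and 1.46. The pairs lay further apart for Ciart, at 5.66 and 4.13, and for Dbp, at 4.03 and 3.15. A pooled test favours genes with nearly equal pairs, because unequal pairs widen its SE. Across all 18011 genes the differences of both pairs correlated at r = 0.17. Genes are not independent replicates, and both pairs have their dusk arrays on slide 2.

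Some clock genes that missed the threshold also had unequal values in the pairs. Nr1d1 differed by 3.26 ± 0.16 (SE) in CT8 minus CT20 and by 0.87 ± 0.16 in CT12 minus CT0. The Period genes had the opposite order, at 0.92 and 2.15 for Per2, 1.54 and 2.32 for Per1, and 0.81 and 2.56 for Per3. Cys1 had -0.39 and 1.61, and Cry1 -0.91 and 0.31, with opposite signs. In the test of the difference between the pairs over all genes, limma called 0 genes at an adjusted p of 0.05, while 1209 had an unadjusted p under 0.05. Adjusted p for this difference was 0.490 for Nr1d1, 0.499 for Cys1 and 0.688 for Per2. CT12 and CT20 filled positions 3 and 4 of their slides and CT0 and CT8 positions 1 and 2, so this difference and array position cannot be told apart.

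**Figure D3:**
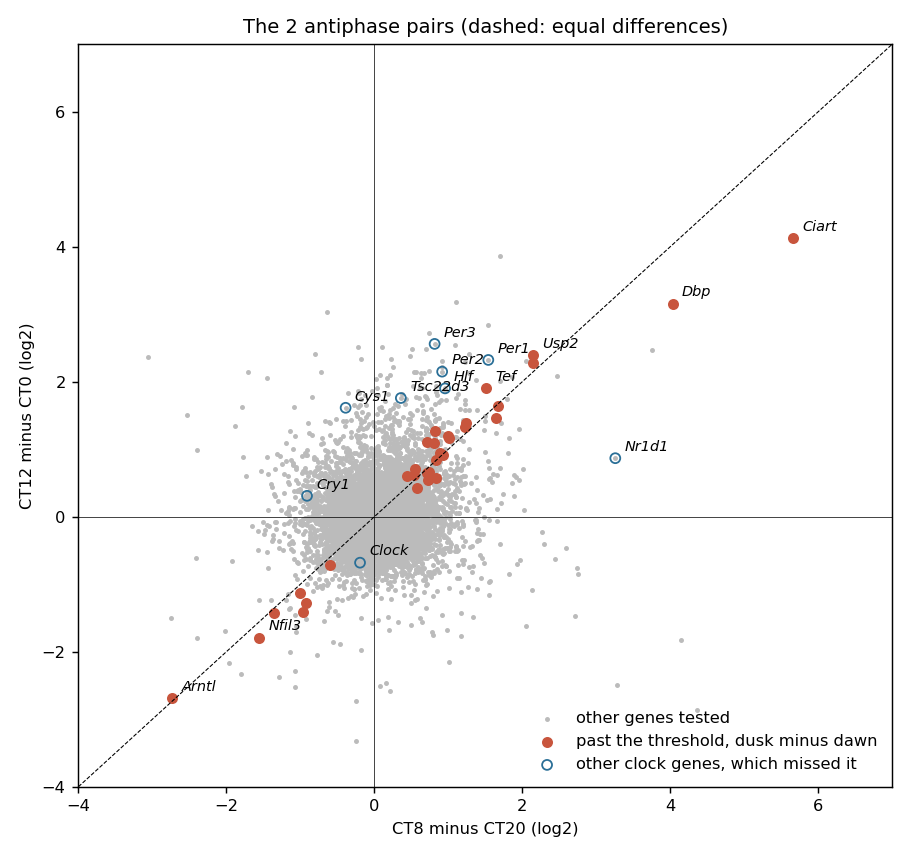
CT12 minus CT0 (log2, vertical) against CT8 minus CT20 (log2, horizontal) for the 18011 genes tested, with the 32 genes past the pooled threshold in red, 9 other clock genes as open circles and a dashed line where both differences are equal. Most red points lie near the line, Ciart and Nr1d1 lie to the right below it and Per1, Per2 and Per3 lie above it.

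Outside the clock lists 22 genes passed, 19 of them higher at dusk. Lefty1, an inhibitor of Nodal signalling (probe chr1:180917655-180917714, mm7), measured 0.58 and 0.53 on the CT8 arrays and 0.66 and 0.54 on the CT12 arrays, against -0.31 and -0.58 at CT20 and -0.52 and -0.61 at CT0. No dusk array was near a dawn array, and the difference was 1.09 ± 0.083 (log2, SE, 4 against 4 arrays, adjusted p = 0.00303), 2.12-fold. Car14, a membrane-bound carbonic anhydrase (probe chr3:95771886-95771945, mm7), gave 0.60 and 0.21 on the CT8 arrays and -0.076 and 0.37 on the CT12 arrays, against -0.86 and -0.81 at CT20 and -1.14 and -1.35 at CT0, a difference of 1.32 ± 0.17 (log2, SE, 4 against 4 arrays, adjusted p = 0.0416), 2.49-fold. Pcsk4, a proprotein convertase (probe chr10:80103953-80104012, mm7), gave -3.20 and -3.05 on the CT8 arrays and -3.51 and -3.01 on the CT12 arrays, against -4.43 and -4.28 at CT20 and -4.49 and -4.68 at CT0, and was 2.42-fold higher at dusk (adjusted p = 0.0184), a difference of 1.28 that was 0.56 in the authors' value table, where it missed the threshold. Lao1, an L-amino acid oxidase, was 4.64-fold higher (adjusted p = 0.0368). Its dusk levels were -4.59 to -3.46 and it was well above background on 2 of 4 dawn arrays. The difference of 2.21 was 0.63 in the authors' value table, where it missed the threshold.

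Smaller differences of 1.55-fold to 2.06-fold were measured for the other 8 named genes of this direction. Lrrn4cl, a leucine-rich repeat protein, ranged from 2.10 to 2.52 at dusk and from 1.11 to 1.58 at dawn, 2.06-fold. Rasd2, a small GTPase of the Ras family, differed 1.94-fold and Ccdc85b 1.88-fold. Pcdh9, a protocadherin, differed 1.79-fold, and its 3 further probes gave 0.35 to 0.84. Lrrc3 differed 1.62-fold and Clcn2, a chloride channel, 1.60-fold. Npy1r, a receptor of neuropeptide Y, ranged from -0.35 to -0.16 at dusk and from -1.02 to -0.74 at dawn, 1.55-fold. Acap3, a GTPase-activating protein for Arf, differed 1.55-fold. Adjusted p for these 8 was 0.0199 to 0.0426. The last 7 genes of this direction fell outside the rule for named genes and are given for completeness. NAP065150-1, a transcript with a placeholder name (probe chr15:80344838-80344897, mm7), had the lowest p of all genes and a difference of 1.65 ± 0.071 (log2, SE, 4 against 4 arrays, adjusted p = 0.00023). Its levels were -3.60 and -3.53 on the CT8 arrays and -3.53 and -3.50 on the CT12 arrays, against -5.18 and -5.30 at CT20 and -5.06 and -5.23 at CT0, and its difference was 0.62 in the authors' value table. Rbp7, a retinol-binding protein (1.42-fold), Fgl2, a fibrinogen-like protein (1.43-fold), and Fam76a (1.49-fold) were small differences with small SEs. TC1410512, LOC240444 and A930018P22Rik, the other 3 placeholders, differed 2.13-fold, 1.89-fold and 1.62-fold, and the last of these was above background on 2 of 4 dawn arrays.

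The 3 genes higher at dawn outside the clock lists were Foxs1, Chek1 and Klhl3. Foxs1, a forkhead transcription factor (probe chr2:152672959-152673018, mm7), measured -2.06 and -2.16 on the CT8 arrays and -2.38 and -2.49 on the CT12 arrays, against -1.14 and -1.23 at CT20 and -1.01 and -1.30 at CT0. It was 2.15-fold higher at dawn, by -1.10 ± 0.11 (log2, SE, 4 against 4 arrays, adjusted p = 0.0184). Chek1, a checkpoint kinase of the DNA damage response (probe chr9:36636487-36636546, mm7), gave -4.88 and -5.07 on the CT8 arrays and -5.04 and -4.91 on the CT12 arrays, against -3.87 and -4.15 at CT20 and -3.71 and -3.42 at CT0. Its dusk levels were tight and its dawn levels spread, with -1.19 ± 0.15 (log2, SE, 4 against 4 arrays, adjusted p = 0.0368), 2.28-fold, but a further Chek1 probe gave only -0.33. In the authors' value table Chek1 had -0.18 and missed the threshold. Klhl3, an adaptor of a ubiquitin ligase that acts on WNK kinases, was 1.58-fold higher at dawn (-0.66, adjusted p = 0.0426).

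A further 9 genes had higher means at dawn than at dusk and missed the threshold. They were added by lowest p to complete the 12 named in this direction, with adjusted p of 0.0578 to 0.0906. Adamts4, a protease that cuts aggrecan and versican, had the largest mean difference of these, with -4.43 and -3.96 on the CT8 arrays and -5.00 and -4.78 on the CT12 arrays, against -2.58 and -3.24 at CT20 and -2.74 and -2.28 at CT0. The difference was -1.83, and -0.91 in the authors' value table. CT12 was lower than CT8 and the groups were separate. The rest were Spsb4 (-1.26), Pcdh12 of endothelial junctions (-0.97), Wdr78 (-0.68), Sft2d1 (-0.67), Zfp462 (-0.56), the exchange factor Vav2 (-0.43), the receptor kinase Grk5 (-0.42) and Mterf1a (-0.35). Further probes gave -0.15 for Vav2 and -0.14 for Zfp462.

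CT4 and CT16 were not pooled and show where the 32 genes lay at other times relative to dawn and dusk. Nr1d2 measured 1.11 and 1.25 at CT4 and 1.51 and 1.47 at CT16, between its dawn and dusk levels. Dbp gave 4.41 and 4.77 at CT4 and 4.60 and 3.82 at CT16, also between them. Arntl was still near dawn at CT4 (0.25 and -0.26) and lower at CT16 (-0.78 and -0.60). Car14 stood at its dawn level at CT4 (-0.83 and -1.26) and at its dusk level at CT16 (0.66 and 0.12). Chek1 was at its low dusk level at both times (-4.82 and -5.54 at CT4, -4.99 and -4.85 at CT16). Dusk was not the highest time for every gene called higher there. Rbp7 measured 1.14 and 1.25 at CT16, above its highest dusk array at 0.84. For Lao1 the CT16 mean of -3.37 lay above the highest dusk array at -3.46. A930018P22Rik had a CT16 mean of -5.01 from unlike arrays (-6.07 and -3.95), with a highest dusk array of -5.47.

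Of the 32 genes, only Lefty1 had both its CT4 mean and its CT16 mean within the dawn range. Over all 18011 genes, most of them with overlapping groups, 9974 did. Lefty1 measured -0.31 and -0.32 at CT4 and -0.29 and -0.68 at CT16, below every dusk array. Acap3 gave 0.035 and 0.0065 at CT4 and -0.097 and -0.47 at CT16, and Npy1r -0.67 and -0.60 and -0.43 and -1.11. For these 2 genes the CT4 arrays lay between dawn and dusk, and the CT16 mean lay within the dawn range. The CT16 mean of LOC240444 also lay within the dawn range. In Lefty1, Acap3 and Npy1r the highest arrays are those of slide 2, as in other genes higher at dusk, among them Nr1d2 and Dbp. The part of the slide was not tested. Within slide 3, Nr1d2 differed by 1.19 in CT16 minus CT20 (adjusted p = 0.0305), the 1 gene called there. The matching values, which missed the threshold, were 2.00 for Dbp, 2.36 for Ciart, 1.69 for Usp2 and -1.19 for Arntl. On slide 1 the 1 gene called in CT4 minus CT0 was Nr1d1 (1.92, adjusted p = 0.0435). Values that missed the threshold there were 1.81 for Dbp, 1.60 for Ciart and -1.25 for Nfil3. These within-slide values share the dawn arrays with the pooled difference. On both slides the 2 times filled different positions, so time and array position cannot be told apart in them.

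The means of the contrast CT16 minus CT4 use none of the 8 arrays, while its SE pools the spread within times over all 12. Both CT4 arrays lay on slide 1 and both CT16 arrays on slide 3. Time, slide and array position cannot be told apart in this contrast. It called 94 genes (0.522%), 0 of them among the 32, of which 12 had an unadjusted p under 0.05 (21.3% of all genes). Among those 12, 10 were higher at CT16, as were 2120 of the 3845 genes with such a p over all genes. Nr1d1 was called there, at -2.73 (adjusted p = 0.00307), and Per2 at 1.68 (adjusted p = 0.0352). Most of the 94 calls were lost whichever of the 4 arrays was left out. Each such fit has only 1 array at that time, so it cannot show which array the calls rest on.

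**Figure D4:**
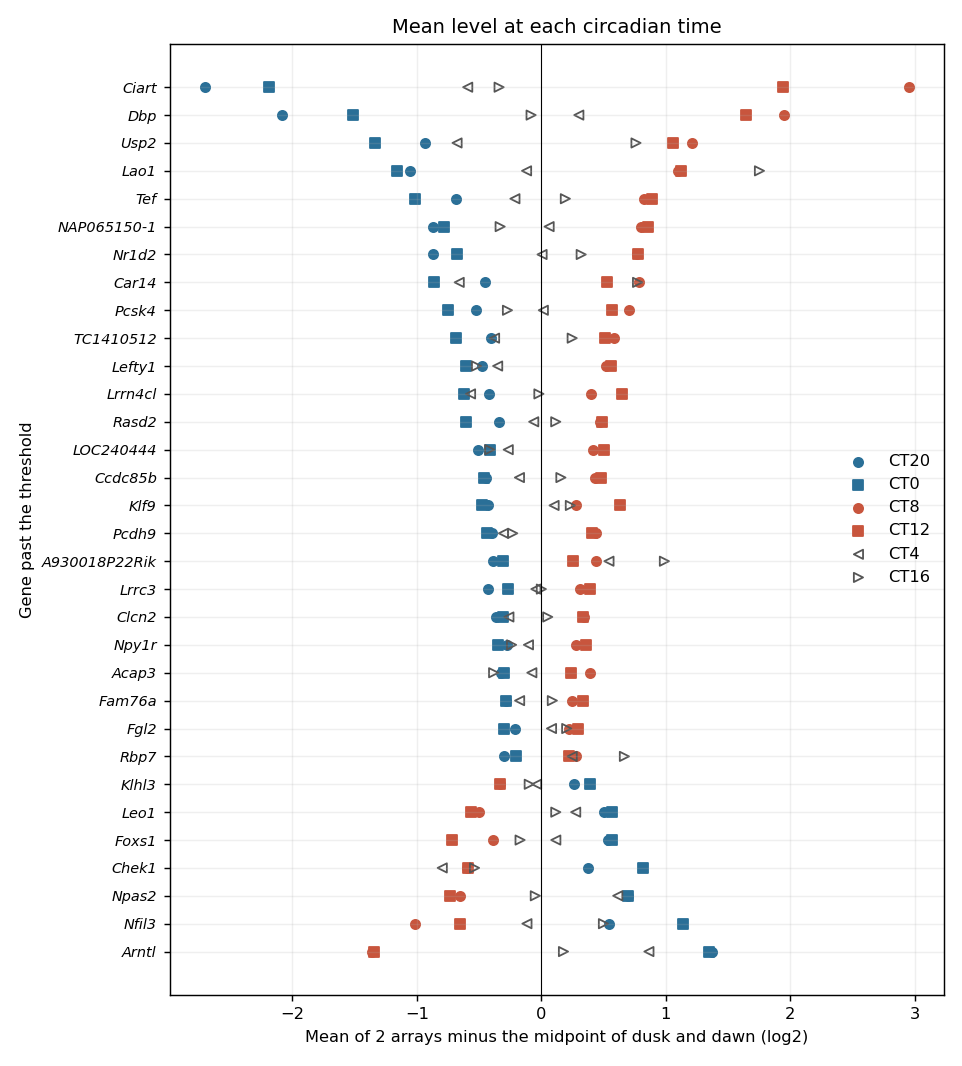
Mean of the 2 arrays at each of the 6 circadian times, minus the midpoint of dusk and dawn (log2, horizontal), for the 32 genes past the threshold ordered by their difference; blue marks CT20 and CT0, red CT8 and CT12, open triangles CT4 and CT16. Most triangles lie between the blue and red marks, those of Lefty1 lie beside blue, and those of Chek1 beside red.

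Gja1, which encodes the gap junction protein connexin 43 of bladder muscle and is the gene behind the study's question, had a higher mean at dusk and missed the threshold. It measured -0.54 and -0.93 on the CT8 arrays and -0.87 and -0.58 on the CT12 arrays, against -1.62 and -1.90 at CT20 and -1.31 and -1.56 at CT0. The groups did not overlap, and the difference was 0.86 ± 0.15 (log2, SE, 4 against 4 arrays, adjusted p = 0.0973), 1.82-fold. An exact two-sided permutation test over the 70 assignments of the 8 arrays gave p = 0.0286, the smallest it can give. Every gene whose groups do not overlap gets this value, 6.83% of all genes. It therefore restates the lack of overlap and is not adjusted for the number of genes. At CT16 the level was -0.67 and -0.84, near dusk, and at CT4 -1.36 and -1.19, nearer dawn. Of 12 connexins tested, 0 passed over all genes, against 0.178% of all genes, and the median of the 12 was 0.060.

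The remaining lists were read by their counts beside the background. Over all genes 0.178% passed the threshold, so 0 called genes in a single list does not set it apart from all genes. Of the 35 lists, 5 held a gene past the threshold: the 3 clock lists, glucocorticoid-responsive genes through Klf9, and water, ion and acid transport through Car14. Glucocorticoid-responsive genes had a median of 0.30 over 18, with 1 called and 7 higher at dusk by an unadjusted p under 0.05, against 5.46% of all genes. Among these 7, Klf9, Per1 and Tsc22d3 also belong to the clock lists. Of the 14 clock kinases and ligases tested, which set the turnover of Period and Cryptochrome proteins, 0 were called, and their differences lay between -0.33 and 0.22. In the smooth muscle list 0 of 24 were called, with a median of -0.033, and Acta2 differed by -0.030. In the urothelium list 0 of 26 were called, with a median of -0.18.

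Markers of fat and liver had higher means at dusk without passing the threshold. In the adipocyte list 13 of 14 members had higher means at dusk, 0 were called and the median was 0.94. The summed linear level of the 14, in units of the array's 75th percentile, was 463 to 862 at dusk and 283 to 639 at dawn. Adipoq, the adiponectin gene, ranged from 3.94 to 5.86 at dusk and from 1.38 to 4.83 at dawn. In the hepatocyte list 18 of 20 were higher at dusk, 0 were called and the median was 0.86, which was 0.24 in the authors' table. Its summed level was 11.7 to 83.5 at dusk and 4.37 to 70.3 at dawn, with the highest values on CT12 replicate 2 and CT20 replicate 2. With the adipocyte score as a covariate 6 genes passed the threshold (Arntl, Ciart, Dbp, Nr1d2, Tef and NAP065150-1), and with the hepatocyte score 13, all among the 32. Without the 2 arrays highest in hepatocyte transcripts 4 genes passed, Arntl, Dbp, Nr1d2 and NAP065150-1. What part fat or liver transcripts had in the other calls was not tested.

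**Figure D5:**
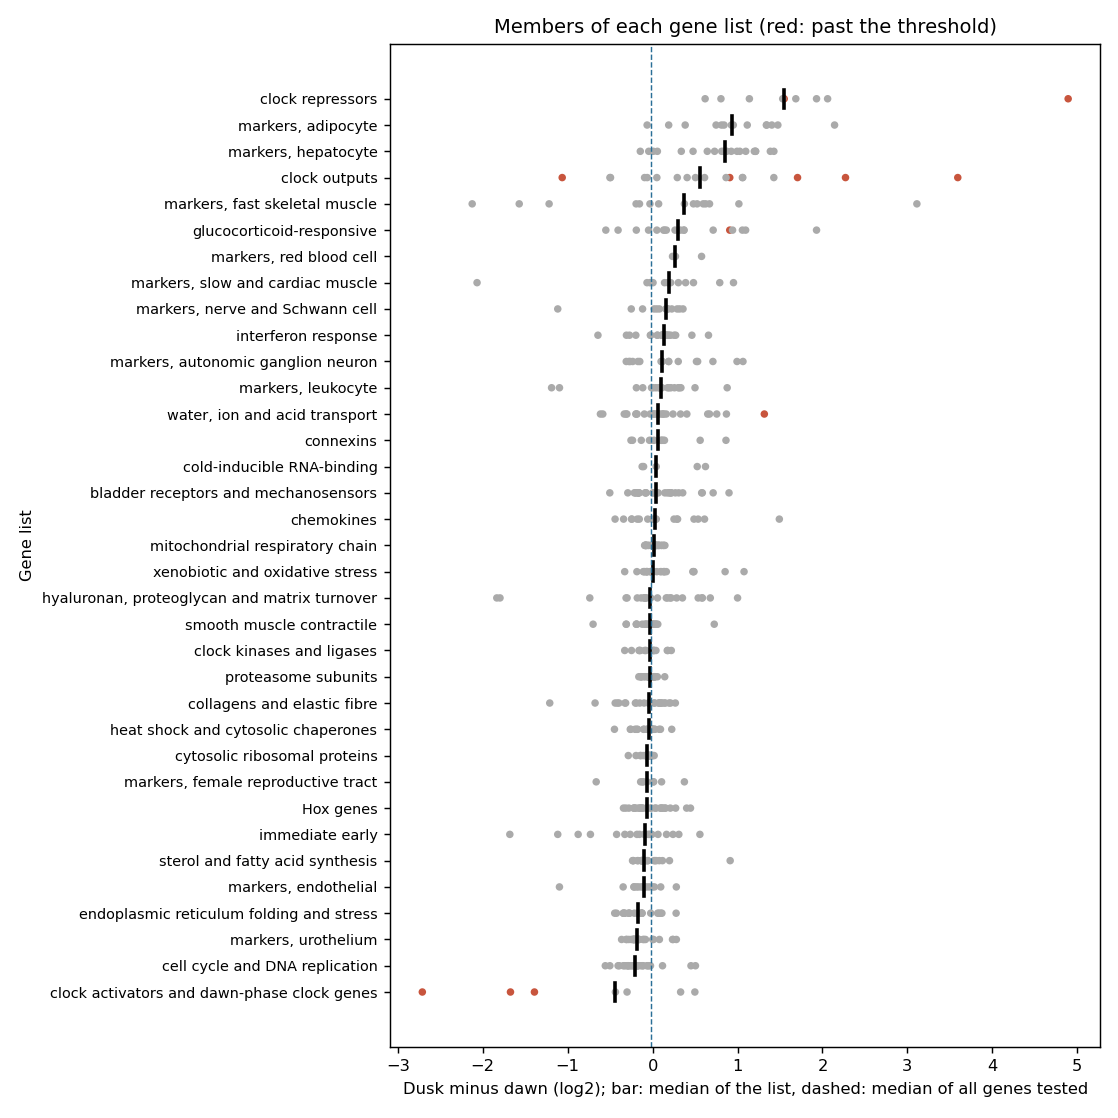
Difference between dusk and dawn (log2) for every tested member of the 35 gene lists (points, red where past the threshold), with the median of each list as a black bar and the median of all genes tested as a dashed line. The clock repressors lie highest and the clock activators and dawn-phase genes lowest, and the adipocyte and hepatocyte markers have medians of 0.94 and 0.86 with no red point.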

How the data were processed

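The deposited scanner files hold 1 intensity value per spot, made by the authors with Agilent Feature Extraction 10.5.1.1 per the file headers and not normalised between arrays; their other columns mark outlier spots and spots well above background. A deposited value table gives the authors' own log2 values, for 27883 of the 41174 probes; the submitters' processing notes name R 2.8.1, and its normalisation and filter are not given in the sources used here, so it served as an alternative. Its columns have nearly equal distributions, with medians of 8.71 to 8.73, and its values minus each probe's mean correlated with the scanner values at r = 0.815 over 27688 shared probes, so its direction is the same, while its background treatment stays unknown.

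Log2 signals were averaged per probe, outlier spots and 271 incomplete probes were left out, and the 75th percentile of each array was subtracted. Names came from RefSeq tables of GRCm38.p6 by accession for 22951 probes, symbol for 6659 and synonym for 3109; 8455 kept the file's name. Probe coordinates are those of the files (mm7). For a name with several probes the brightest on average was kept, and names detected well above background on 4 or more of the 8 compared arrays were tested, 18011 in all, of which 3593 carry placeholder names. A 2-group fit in limma 3.58.1 (R 4.3.3, two-sided moderated test, Benjamini-Hochberg over all genes, threshold 0.05) was checked on simulated data; SE is that of the fit. Fits with 4 or 6 time means gave the difference between the antiphase pairs and CT16 minus CT4. Tables, permutation tests and figures used Python 3.11.15, scipy 1.17.1 and matplotlib 3.10.9. The number of arrays limits the precision.

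The members, the 35 lists and the tests were chosen with earlier results of these data known. Genes are named if they belong to the 3 clock lists or are Gja1; if they are among the 12 largest differences per direction past the threshold, with separate groups, all 4 arrays of the higher group above background and a gene symbol, filled up to 12 by lowest p with genes that missed it; or if they are among up to 3 called members of another list. Others are given where a count is small. A member of the clock lists is not reported here. Alternatives covered scaling, background correction, the authors' table, the filter, probe choice, time means, slide, replicate number, the variance prior, array weights, other-tissue scores and leaving out times or arrays.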

Additional observations from a re-analysis of the deposited data

Results flagged for a closer look

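Of 66 genes examined in the dusk group and in the dawn group, 132 groups of 4 arrays in all, 3 held an array that stood apart by Dixon's test at the 95% level, which chance alone meets in about 1 group of 20. Npy1r, higher at dusk, had a level of -0.35 on CT8 replicate 2, below the other dusk arrays at -0.19 to -0.16. Bhlhe41 had -4.21 on CT20 replicate 1, above the other dawn arrays at -4.53 to -4.49. Cry1 had -3.30 on CT0 replicate 2, below the other dawn arrays at -3.11 to -3.09. The calls of these genes with and without single arrays are covered by the ranges given for the processing.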

How the results depend on the processing

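For dusk minus dawn, 32 genes in the main analysis became 31 to 47 with quantile scaling, normexp, the authors' table, every probe tested, a filter on all 8 arrays, an intensity trend in the prior or array weights. The count was 17 with median scaling (16 of them among the 32), 9 with no filter on dim probes, where 27544 genes were tested, 20 with 4 time means over 8 arrays and 80 with 6 time means over 12 arrays (25 of the 32 among them). It was 51 with slide as a random block over 8 arrays (all 32 among them). That fit estimated a slide correlation of -0.064, and no slide held both groups, so it cannot separate slide from dusk. The count was 13 with no variance prior, and 13 and 15 with the hepatocyte and the slow and cardiac muscle score as a covariate. It was 6 without CT20, 8 without CT0, 8 without CT12 and 8 without CT8. Added after seeing the data, the adipocyte score gave 6, and leaving out CT12 replicate 2 and CT20 replicate 2 together gave 4. Leaving out 1 array gave 9 to 15. The cause of these changes was not tested, beyond the fewer arrays of the last ones. The replicate numbers did not pair the arrays: correlations of deviations between same-numbered arrays ran from -0.20 to 0.48, and with the replicate block 14 genes passed, all among the 32.

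The difference between the antiphase pairs gave 0 genes in every alternative run except 1 gene without CT0 replicate 1, so its range was 0 to 1 with 1 array left out. CT16 minus CT4, with 94 genes, gave 51 with median scaling, 520 with normexp, 333 in the authors' table, 21 with no filter, 433 with an intensity trend, 1045 with array weights, 98 with quantile scaling, 88 with the replicate block and 0 to 5 with 1 array left out; the cause was not tested. Slide as a random block over 12 arrays was not run, because the time means already hold the slides. Of the named genes' values in all alternatives, 1422 kept their side of the threshold, 502 fell short of it, 52 newly passed it and 0 changed sign against a difference larger than its SE. Dim genes are limited by signal over background: Npas2, Lao1 and A930018P22Rik were not well above background on 2 of 4 arrays of their lower group.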

Other observations

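Other gene groups had differences that missed the threshold over all genes. In the matrix turnover list the proteases of the Adamts family pointed both ways. Adamts1 ranged from 1.55 to 2.49 at dusk and from 0.46 to 1.37 at dawn (adjusted p = 0.311). Adamts5 differed by 0.58 (adjusted p = 0.309), against -1.83 for Adamts4. Spon2, a secreted matrix protein, ranged from 1.46 to 2.74 at dusk and from 3.60 to 4.64 at dawn, a difference of -1.80 (adjusted p = 0.109). The cold-inducible genes Rbm3 (0.53, adjusted p = 0.250) and Cirbp (0.62, adjusted p = 0.337), which encode RNA-binding proteins, had higher means at dusk on groups that did not overlap.

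Of 21 genes of endoplasmic reticulum folding 16 had lower means at dusk, with a median of -0.18 and 0 called; 9 of them had an unadjusted p under 0.05 and were lower at dusk, against 4.94% of all genes. Hspa5, the chaperone BiP, differed by -0.45 (adjusted p = 0.370) and Creld2 by -0.43 (adjusted p = 0.229). Among 32 bladder receptors and mechanosensors 0 were called, against 0.178% of all genes. Ptger3, a prostaglandin E2 receptor, differed by 0.90 (adjusted p = 0.188) and Tacr2, a neurokinin receptor, by 0.71 (adjusted p = 0.272). Single markers of other cells stood out from their lists. Tcap, a sarcomere protein, ranged from 2.05 to 3.55 at dusk and from -1.13 to 0.84 at dawn (difference 3.11, adjusted p = 0.0680), while the fast skeletal muscle list had a median of 0.37 and Myh2 differed by -2.12. Cd163, a scavenger receptor of macrophages, differed by 0.88 (adjusted p = 0.0906) with a leukocyte median of 0.10. Esm1 of endothelial cells differed by -1.10 (adjusted p = 0.0996) with an endothelial median of -0.11. These genes were picked for their values from lists chosen with earlier results known.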
